A study of Mus musculus with 12 samples.

Results

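The proteasome subunit genes were described across 12 arrays of RAW 264.7 cells, a mouse macrophage line that grows attached and was transformed with the Abelson leukaemia virus. Members were the genes whose transcript clusters on the array carried a single gene symbol beginning with Psma, Psmb, Psmc, Psmd or Psme and a number. This gave 44 genes, measured by 46 clusters, out of 22180 genes with such a cluster. All 44 lay above the limit for low signal, a 12-array mean over log2 2.01, and were among the 14611 genes tested. The rule took in Psmc3ip and Psme3ip1, which share letters with the subunits but are not subunits (Psmc3ip is a partner of the meiotic recombinases), so 42 genes encode proteasome components or their bound factors. Psma4 and Psme2b had no cluster of their own on which to be measured, and 4 clusters that name a member together with another gene were not used.

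RAW 264.7 cells had been transfected for 48 h in 3 groups of 4 arrays each, titled as biological replicates. The groups received an irrelevant scramble oligonucleotide, pre-miR-223 (below, the mimic, which raises the activity of miR-223) or anti-miR-223 (the inhibitor, which occupies the microRNA). All groups share 1 transformed line and the transfection itself. The scramble arrays serve both comparisons against scramble, so those comparisons are not independent. The array gives no cluster to Mir223 alone, and whether mimic and inhibitor reached the cells was not checked.

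The proteasome is the protease of the cytosol and nucleus that degrades ubiquitin-tagged proteins. Its 20S core is a barrel of outer alpha rings, which gate the entrance, and inner beta rings, which hold the catalytic subunits Psmb5, Psmb6 and Psmb7. The 19S cap recognises ubiquitin, unfolds the substrate with a ring of ATPases encoded by the Psmc genes, and threads it into the core. In cells of the immune system and under interferon, Psmb8, Psmb9 and Psmb10 take the place of the constitutive catalytic subunits, and the PA28 activator of Psme1 and Psme2 docks on the core; this immunoproteasome cuts peptides suited to presentation on MHC class I. Transcription factors of the CNC family, Nfe2l1 above all, drive the subunit genes together when proteasome capacity is short.

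The mature strands of miR-223 are shown because the mimic and the inhibitor are directed at this microRNA. The capitals mark the seed, bases 2 to 8, which pairs with target transcripts. Both strands lie in the Mir223 hairpin on the plus strand, at chrX:96242884-96242905 for the 3p strand of 22 bases and chrX:96242842-96242864 for the 5p strand of 23 bases (RefSeq, GRCm38.p6). The labels do not say which strand the mimic carries.
mmu-miR-223-3p: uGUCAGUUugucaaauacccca
mmu-miR-223-5p: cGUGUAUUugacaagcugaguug

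RefSeq promoters, 250 bases before to 50 after each start on GRCm38.p6, were found for 37 of the 44 genes and searched on both strands for 3 motifs that bear on how the family is switched. The antioxidant response core TGACNNNGC, which CNC factors bind, was present in 6 of the 41 promoters of these genes (14.6%, against 12.4% of all 32851 promoters). The members with this core were Psmb5, Psmb6, Psmc6, Psmd9, Psmd12 and Psme4. The CCAAT box, bound by NF-Y, was in 16 of 41 (39.0%, against 37.4%). The core of the interferon-stimulated element, GAAA repeated after any 2 bases, was in 4 of 41 (9.76%, against 3.44%), namely Psmb3, Psmd4, Psmd9 and Psme1. Of the 5 immunoproteasome genes, none had TGACNNNGC in this window, Psmb9 had a CCAAT box and Psme1 had the interferon element core. A match says only that the letters are in the window. Examples upstream of the start are given below with the motif in capitals, each 5′ to 3′ on the strand of its gene; where the motif lies on the other strand its reverse complement is in capitals. They were chosen for the genes that carry them: Psmb5 encodes a catalytic subunit, Psma2 had the lowest difference in the comparison of mimic with scramble, Psmd9 carries both other motifs, and Psmb3 is a core gene with the interferon element core.
Psmb5, TGACNNNGC at chr14:54618022-54618054, minus strand: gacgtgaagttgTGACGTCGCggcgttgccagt
Psmd9, TGACNNNGC at chr5:123228147-123228179, plus strand: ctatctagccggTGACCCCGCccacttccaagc
Psma2, CCAAT at chr13:14613176-14613204, plus strand: ggtgactctcctCCAATcagagcaaagaa
Psmd9, interferon element core at chr5:123228019-123228052, plus strand: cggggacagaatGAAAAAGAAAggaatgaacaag
Psmb3, interferon element core on the other strand at chr11:97703259-97703292, plus strand: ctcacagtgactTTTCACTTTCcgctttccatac

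The arrays had medians over all clusters between log2 2.21 and 2.31. Anti-miR-223 replicate 4 stood apart: its median correlation with the other arrays was 0.967, against 0.988 to 0.992 for the rest, and 629 of 14611 genes (4.30%) differed from their 12-array mean by over 2-fold, against at most 37 on any other array. Values without it are therefore given beside many of the results. Macrophage markers defined the cells, with 10 of 10 measured markers above the limit, from Fcgr1 at log2 5.96 to Lyz2 at 11.2. Marker lists of other cell types stayed low: 3 of 6 fibroblast, 3 of 4 epithelial, 2 of 4 lymphoid and 2 of 5 neutrophil markers were above the limit, the highest being Krt8 at 3.52, and none was at 0.

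All 44 genes had a 12-array mean above the limit for low signal, which is not a test of whether a transcript was present. The signal of each gene depends on its own probes, so signals are compared between groups and not between genes. Across the 44 genes the 12-array mean ran from log2 2.35 for Psmb11, the beta subunit of the thymus, to 8.87 for Psmd8, a cap subunit. Psmb11 and Psma5, an alpha ring subunit at 2.75, were within 1 log2 unit of the limit for low signal. The mean of Psmb11 was close to the array medians over all clusters, 2.21 to 2.31, so its expression in these cells was not shown. The spread among replicates of 1 group had a median pooled SD of 0.16 over the members and 0.19 over all tested genes. Psmd5, a chaperone of cap assembly, had the widest spread (pooled SD 0.40, and 0.18 without anti-miR-223 replicate 4), followed by Psme2 (0.36 with or without that array).

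No proteasome gene passed the test in any of the 3 comparisons. A gene was called where limma's p, adjusted by Benjamini-Hochberg over all 14611 genes, was under 0.05. By this rule 0 of 44 members were called for the mimic against scramble, for the inhibitor against scramble and for the mimic against the inhibitor, and 0% of all genes were called in each. The lowest adjusted p of a member was 0.921 for the mimic against scramble, 0.99997 for the inhibitor against scramble and 0.946 for the mimic against the inhibitor. At an unadjusted p under 0.05, 2 of 44 members passed in the first comparison, where 4.87% of all genes did, 1 of 44 in the second, against 2.01%, and 1 of 44 in the third, against 3.61%. These shares of members are close to those of all genes. The 4 values of 1 group did not all lie beyond those of the other for any member in any comparison, against 2.98%, 1.55% and 1.67% of all genes.

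The arrays bounded how far the signal of the brightest cluster of each member could have moved. A log2 difference of 0.58 is 1.5-fold. The 95% confidence interval left out a 1.5-fold difference for 41 of 44 members with the mimic against scramble, for 43 with the inhibitor against scramble and for 40 with the mimic against the inhibitor, and a 2-fold difference for all 44 in each. The corresponding shares of all genes for 1.5-fold were 82.8%, 88.1% and 82.9%. The genes whose interval reached 1.5-fold were Psmc4, Psmd5 and Psme2 in the first comparison, Psmd5 in the second, and Psmd5, Psmd7, Psme1 and Psme2 in the third. The median half-width of the interval was 0.26 log2 units. These counts do not cover the second cluster of Psmc2, described further below. Its interval was -0.04 to 2.63 for the mimic against scramble and -1.28 to 1.39 for the inhibitor against scramble. For the mimic against the inhibitor it was -0.10 to 2.57. All of these reach beyond 2-fold. The counts include Psmb11 and Psma5, whose signals lay near the limit for low signal.

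**Figure D1:**
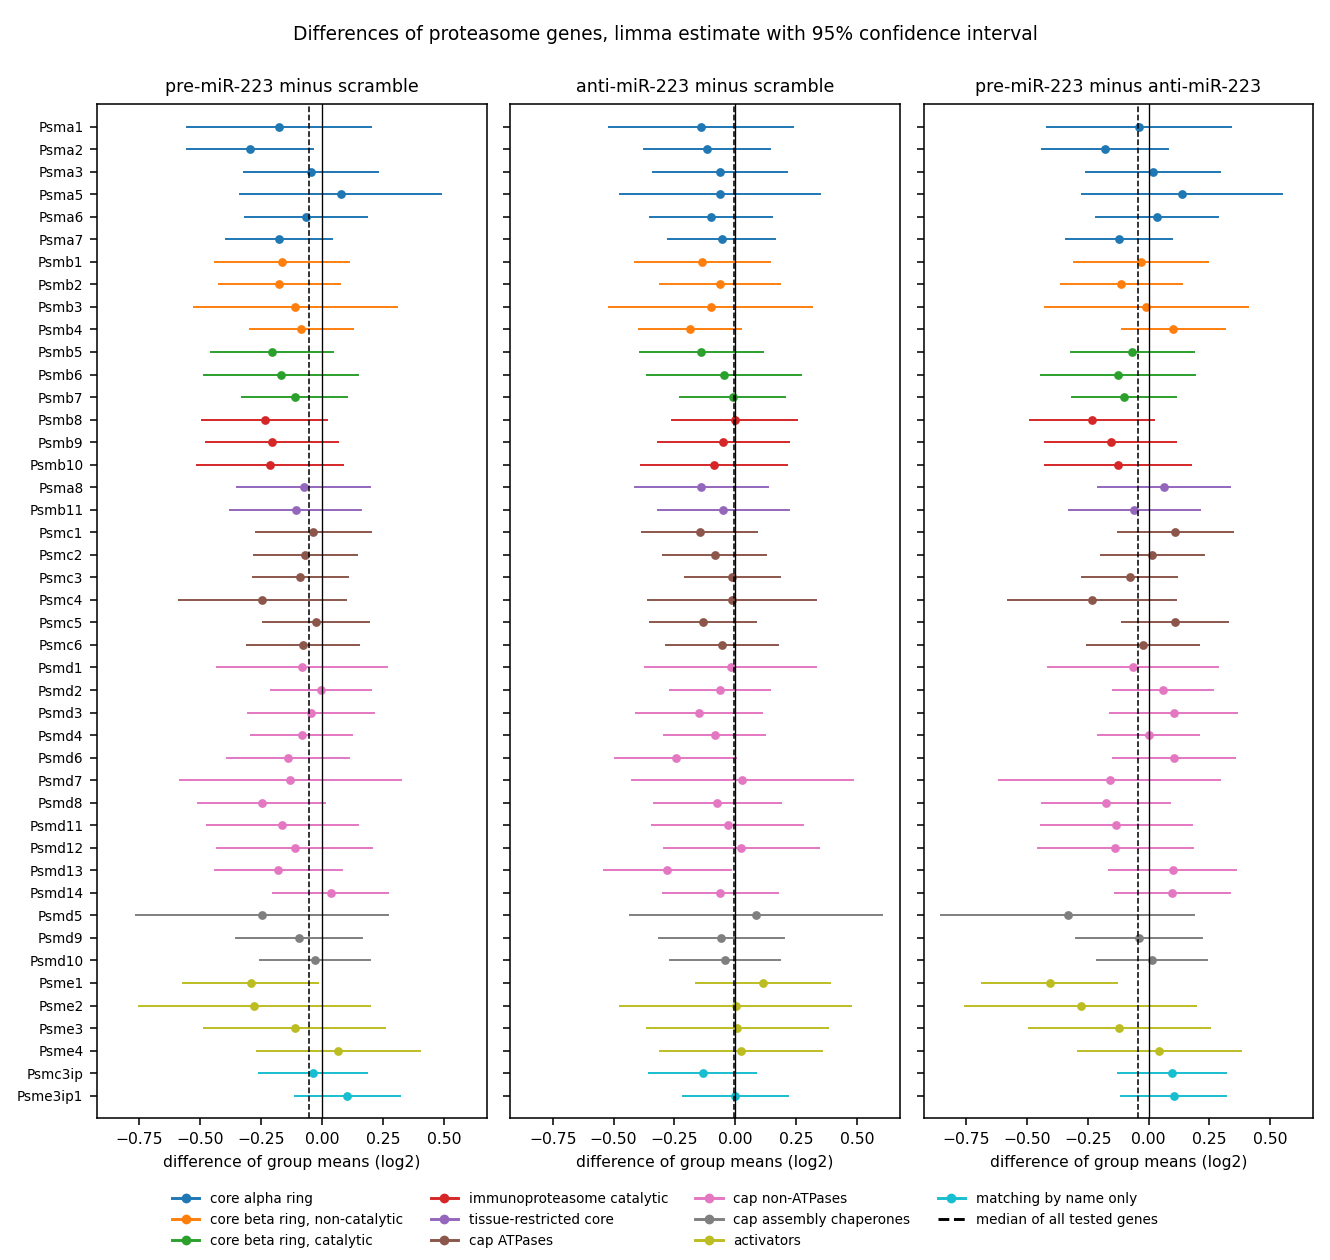
Each row is 1 of the 44 genes, coloured by role; points are limma's log2 differences of group means and bars are 95% confidence intervals, with 1 panel per comparison and a dashed line at the median of all tested genes. The members lie between -0.30 and 0.10 for the mimic against scramble, between -0.28 and 0.11 for the inhibitor against scramble and between -0.41 and 0.14 for the mimic against the inhibitor.

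The first comparison asks what added miR-223 activity does to these transcripts. With pre-miR-223, 40 of 44 members had a mean below scramble, and the median difference of the members was -0.11 on the log2 scale. All tested genes leaned the same way, with 65.2% below scramble and a median of -0.05. This lean depended on how the arrays were scaled. With each array centred on its median, 29 of 44 members lay below 0 (43.0% of all genes); with quantile normalisation repeated, 33 (60.6%); and with cyclic loess, 22 (52.1%). Differences of single genes ran from -0.30 for Psma2 to 0.10 for Psme3ip1.

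The core subunits gave the lowest value of this comparison. Psma2, an alpha ring subunit, read 8.19, 8.28, 8.25 and 8.24 on the scramble arrays (8.24 ± 0.04, SD, n = 4) and 7.90, 8.28, 7.71 and 7.89 with pre-miR-223 (7.94 ± 0.24, n = 4). The mimic's replicate 2 read at the level of scramble while the other 3 mimic arrays lay below every scramble array. The difference was -0.30 (95% confidence interval -0.56 to -0.04, adjusted p = 0.921 in limma). Over the 6 measured alpha ring genes the median was -0.12, with 5 below scramble, but with 3 of 6 below after centring and after cyclic loess. All 4 non-catalytic beta ring genes, Psmb1 to Psmb4, were below scramble at a median of -0.14 (3 of 4 after cyclic loess).

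The constitutive catalytic subunits Psmb5 (chymotrypsin-like activity), Psmb6 (caspase-like) and Psmb7 (trypsin-like) had a median difference of -0.17 with the mimic, and 2 of the 3 stayed below scramble after cyclic loess, where Psmb7 turned to 0.0050. Psmb5 read 7.81, 7.81, 7.77 and 7.75 with scramble and 7.52, 7.84, 7.62 and 7.34 with the mimic, a difference of -0.21 (-0.46 to 0.05). The mimic's replicate 2 lay above every scramble array and the other 3 lay below them. Psmb6 differed by -0.17 (-0.49 to 0.15) and Psmb7 by -0.11 (-0.33 to 0.10).

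The 5 immunoproteasome genes, Psmb8, Psmb9, Psmb10, Psme1 and Psme2, were all below scramble with the mimic, at a median difference of -0.24 against -0.05 for all genes. All 5 were also below scramble under each of the other 3 scalings. Their medians were -0.16 when centred, -0.17 with quantile normalisation and -0.13 with cyclic loess. Those of all genes were 0.03, -0.03 and -0.01. None of the 5 passed the test. Leaving out 1 array at a time moved this median between -0.31 and -0.13; the former lacked pre-miR-223 replicate 2 and the latter replicate 4 of that group.

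Psmb8, which replaces Psmb5 in the immunoproteasome, read 6.75, 6.40, 6.28 and 6.35 with scramble (6.45 ± 0.21) and 6.07, 6.35, 6.32 and 6.11 with pre-miR-223 (6.21 ± 0.14). The groups overlapped, and scramble replicate 1 stood above the other scramble arrays. The difference was -0.24 (-0.49 to 0.02, limma adjusted p = 0.921). Psmb9, which replaces Psmb6, read 4.88, 4.97, 4.98 and 4.66 with scramble and 4.67, 4.80, 4.75 and 4.43 with the mimic, a difference of -0.20 (-0.47 to 0.06). Here scramble replicate 4 lay within the mimic's range. Psmb10, which replaces Psmb7, read 7.28, 7.12, 7.05 and 6.96 with scramble and 6.89, 7.27, 6.76 and 6.63 with the mimic, a difference of -0.21 (-0.51 to 0.09); 3 of 4 mimic arrays lay below every scramble array.

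Psme1, the PA28 alpha subunit, had the other unadjusted p under 0.05 among the members in this comparison. It read 7.11, 7.22, 7.04 and 7.09 with scramble (7.12 ± 0.07) and 6.82, 7.10, 6.77 and 6.60 with pre-miR-223 (6.82 ± 0.21). Only the mimic's replicate 2 reached the scramble range. The difference was -0.29 (-0.57 to -0.02, limma adjusted p = 0.921). Its partner Psme2, PA28 beta, differed by -0.28 (-0.75 to 0.20), but that value rested on 1 array: the mimic arrays read 3.85, 3.74, 4.17 and 2.86, and without the last the difference was -0.01. Psme3, the nuclear PA28 gamma activator that is not part of the immunoproteasome, differed by -0.11 (-0.48 to 0.26; 0.00016 after cyclic loess), and Psme4, the PA200 activator, by 0.07 (-0.27 to 0.40).

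The cap showed smaller medians. The 6 ATPase genes Psmc1 to Psmc6 had a median of -0.07, and the 11 non-ATPase genes one of -0.11, with 10 of 11 below scramble. Both medians turned under another scaling, to 0.04 and 0.0040 after cyclic loess, and the ATPase median to 0.0064 after centring. Psmd8, a lid subunit, read 9.03, 9.16, 8.87 and 8.87 with scramble and 8.65, 9.04, 8.68 and 8.57 with pre-miR-223, a difference of -0.25 (-0.51 to 0.01). Mimic replicate 2 again read within the scramble range. The 3 chaperones of cap assembly, Psmd5, Psmd9 and Psmd10, had a median of -0.10 and the tissue-restricted core genes Psma8 (testis) and Psmb11 one of -0.09.

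Which arrays were used decided how many members reached an unadjusted p under 0.05 with the mimic. Without pre-miR-223 replicate 2, 8 members did, namely Psma2, Psmb5, Psmb6, Psmb8, Psmb10, Psmd8, Psmd13 and Psme1, where 10.3% of all genes did too. No member did with scramble replicate 2 or with pre-miR-223 replicate 1, 3 or 4 left out. Leaving out scramble replicate 4 kept Psma2 alone, and leaving out scramble replicate 1 or 3 left 2 members. In these 7 fits between 2.15% and 4.78% of all genes had such a p, fewer than the 4.87% with all arrays. Without anti-miR-223 replicate 4, which enters this comparison only through the shared estimate of spread, 3 members did (Psma2, Psmc4 and Psme1; 9.38% of all genes), and the lowest adjusted p of a member was 0.521. No member was called after adjustment in any of these fits.

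**Figure D2:**
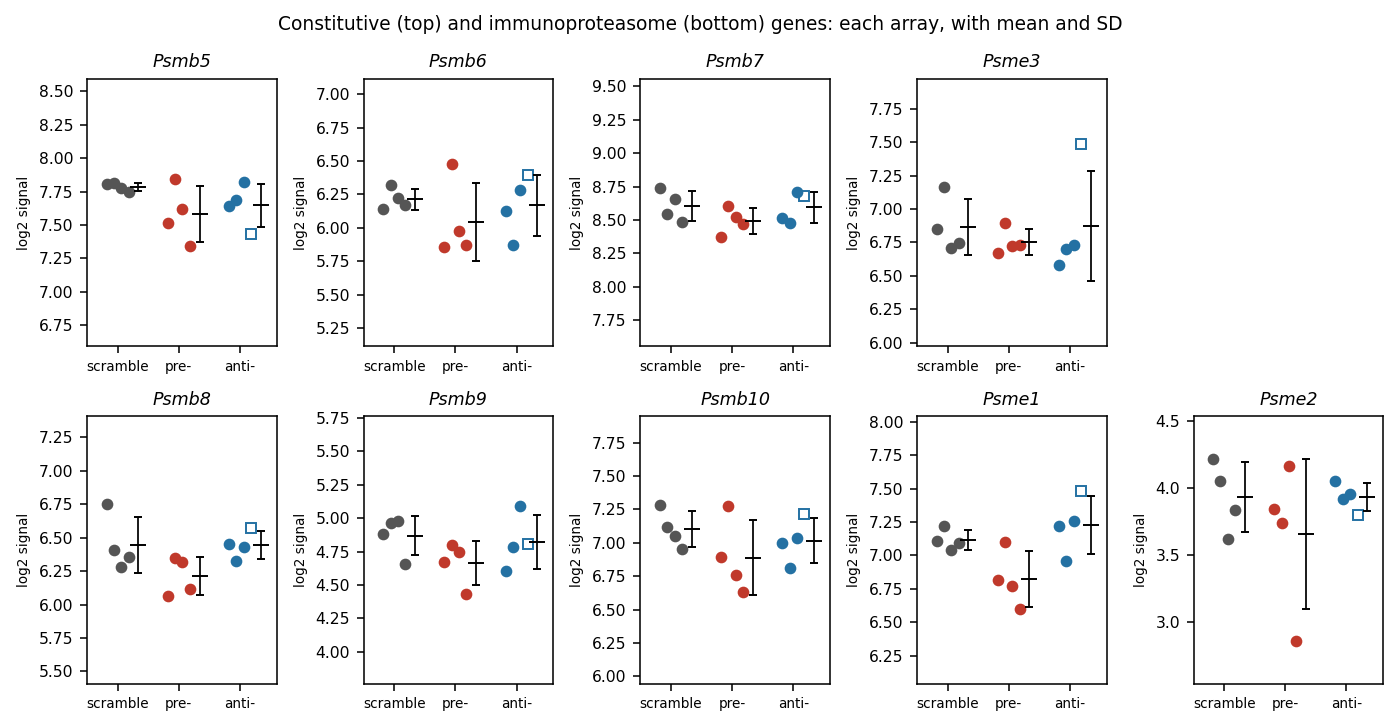
Dots are the log2 signals of single arrays in the scramble, pre-miR-223 (pre-) and anti-miR-223 (anti-) groups, in order of replicate, with the mean and SD of each group beside them; open squares are anti-miR-223 replicate 4, and every axis spans 2 log2 units. The group ranges overlap in all 9 panels; Psme2 shows 1 mimic array at 2.86, and Psme3 shows anti-miR-223 replicate 4 at 7.48.

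The second comparison asks what blocking miR-223 does. With anti-miR-223, 36 of 44 members lay below scramble at a median difference of -0.06, where 52.5% of all genes lay below at a median of -0.01. After centring, repeated quantile normalisation and cyclic loess, 36, 32 and 30 members lay below (51.6%, 51.9% and 48.1% of all genes). Without anti-miR-223 replicate 4, 37 members and 63.6% of all genes lay below, and 0 members had an unadjusted p under 0.05 (6.69% of all genes). The median of the members ranged from -0.09 to -0.02 as single arrays were left out, the latter without scramble replicate 2.

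Psmd13, a lid subunit of the cap, had the largest difference of a member and the only unadjusted p under 0.05. It read 5.45, 5.74, 5.28 and 5.41 with scramble (5.47 ± 0.19) and 5.22, 5.10, 5.30 and 5.13 with anti-miR-223 (5.19 ± 0.09). The ranges overlapped only through scramble replicate 3 and anti-miR-223 replicate 3. The difference was -0.28 (-0.54 to -0.02, limma adjusted p = 0.99997), and it was -0.26 without anti-miR-223 replicate 4.

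Next by p came Psmd6, another lid subunit, at -0.25 (-0.49 to 0.00). Psmb4, a non-catalytic beta subunit, was at -0.19 (-0.40 to 0.02). The ATPase Psmc1 was at -0.15 (-0.38 to 0.09), a value that 1 array set: the inhibitor arrays read 7.86, 7.82, 7.87 and 7.46, and without the last the difference was -0.05. Psmc3ip, which is no subunit, was at -0.13 (-0.36 to 0.09), and at -0.06 without the same array.

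The immunoproteasome genes sat near scramble with the inhibitor. Their median difference was -0.0028, with 3 of 5 below scramble. It turned to 0.02 under quantile normalisation and cyclic loess, and was -0.04 without anti-miR-223 replicate 4. Psmb8 read 6.46, 6.33, 6.43 and 6.57 with anti-miR-223 (6.44 ± 0.10), all inside the scramble range. Psmb9 differed by -0.05 (-0.32 to 0.22) and Psmb10 by -0.09 (-0.39 to 0.21; -0.15 without that array). Psme1 read 7.22, 6.96, 7.26 and 7.49 (7.23 ± 0.22), which was 0.11 from scramble (-0.16 to 0.39) and 0.03 from it without anti-miR-223 replicate 4. The intervals of all 5 immunoproteasome genes lay within 1.5-fold here.

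Psmb5 differed by -0.14 (-0.39 to 0.11), Psmb6 by -0.04 (-0.36 to 0.27) and Psmb7 by -0.01 (-0.23 to 0.20) with the inhibitor. Without anti-miR-223 replicate 4 they were at -0.07, -0.12 and -0.04. That array weighed on several classes here. Without it, the median of the 11 cap non-ATPase genes went from -0.06 (9 below scramble) to -0.15 (11 below), while that of the 4 non-catalytic beta ring genes went from -0.12 (4 below) to 0.0061 (2 below). The 4 activator genes had a median of 0.02 with that array and -0.05 without it. Psme3 went from 0.01 to -0.19 (limma adjusted p = 0.724 without the array).

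**Figure D3:**
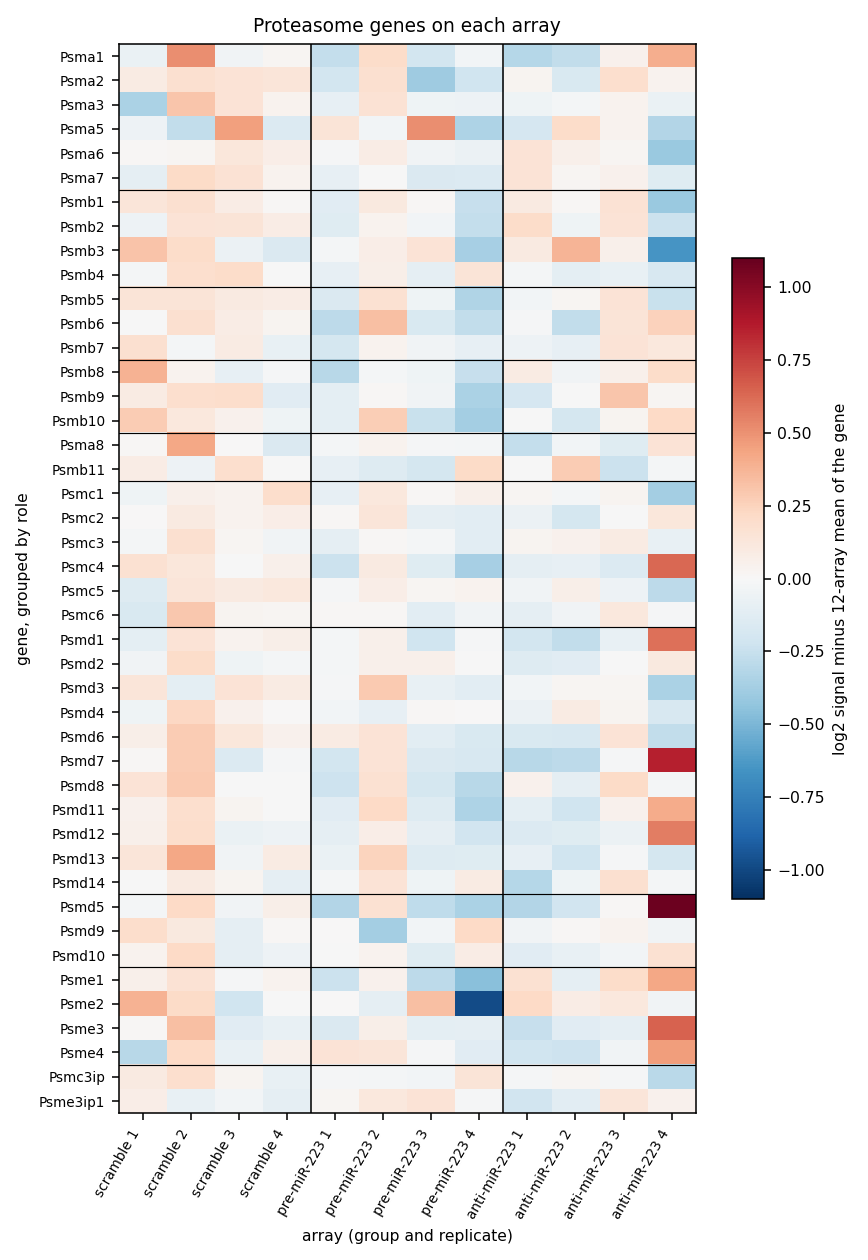
Rows are the 44 genes grouped by role and columns the 12 arrays; colour is the log2 signal minus the gene's 12-array mean. Anti-miR-223 replicate 4 holds both the highest values (Psmd5, 1.08 above its mean) and many low ones, and the lowest cell is Psme2 on pre-miR-223 replicate 4, 0.98 below its mean.

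Anti-miR-223 replicate 4 lay above all 11 other arrays for 9 members and below them for 10, which is 43.2% of the members, against 47.6% of all genes. Those above were Psmd1, Psmd5, Psmd7, Psmd11, Psmd12, Psmc4, Psme1, Psme3 and Psme4, all of them cap or activator genes; the largest gaps to the mean of the other arrays were 1.17 for Psmd5, 0.93 for Psmd7 and 0.71 for Psme3. Those below were the core genes Psmb3 (-0.71), Psma6 (-0.45), Psmb1 (-0.45) and Psmb4, the cap genes Psmc1 (-0.41), Psmd3 (-0.38), Psmc5, Psmd4 and Psmd6, and Psmc3ip. This is 1 array, and no test was made on it.

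The third comparison sets the mimic against the inhibitor. With pre-miR-223, 26 of 44 members lay below anti-miR-223 at a median of -0.04 (-0.01 without anti-miR-223 replicate 4), and 62.8% of all genes lay below at a median of -0.04. After centring, repeated quantile normalisation and cyclic loess, 17, 23 and 19 members lay below (41.0%, 57.6% and 53.0% of all genes). Without anti-miR-223 replicate 4, 23 members did (52.2% of all genes), and 1 member, Psme1, had an unadjusted p under 0.05 (4.89% of all genes).

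Psme1 gave the smallest p of any member in this comparison. It read 6.82, 7.10, 6.77 and 6.60 with the mimic and 7.22, 6.96, 7.26 and 7.49 with the inhibitor. The groups overlapped only through replicate 2 of each. The difference was -0.41 (-0.68 to -0.13), with an unadjusted p of 0.00706 and an adjusted p of 0.946 in limma. It was -0.32 without anti-miR-223 replicate 4 and between -0.36 and -0.32 under the other scalings, and its unadjusted p stayed under 0.05 with each array left out in turn.

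All 5 immunoproteasome genes lay below anti-miR-223 with the mimic, at a median of -0.23 (-0.04 for all genes), and also under each other scaling. Their medians were then -0.16 when centred, -0.19 with quantile normalisation and -0.16 with cyclic loess. Those of all genes were 0.03, -0.03 and -0.01. Without anti-miR-223 replicate 4 the median was -0.19, and without pre-miR-223 replicate 4 it was -0.08. Psmb8 differed by -0.23 (-0.49 to 0.02), Psmb9 by -0.16 (-0.43 to 0.11), Psmb10 by -0.13 (-0.43 to 0.17; -0.06 without anti-miR-223 replicate 4) and Psme2 by -0.28 (-0.75 to 0.20; -0.01 without pre-miR-223 replicate 4). The constitutive counterparts Psmb5, Psmb6 and Psmb7 were at -0.07, -0.13 and -0.10, and at -0.14, -0.05 and -0.07 without that inhibitor array. In this RNA from whole cultures, less RNA per cell and fewer cells expressing a gene cannot be told apart.

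The balance of immunoproteasome to constitutive subunit can be followed within each array, where a shift common to all its genes cancels. The log2 ratio of Psmb8 to Psmb5 differed from scramble by -0.03 with the mimic and by 0.14 with the inhibitor (0.02 without anti-miR-223 replicate 4), beside SDs of 0.19, 0.12 and 0.25 among the scramble, mimic and inhibitor arrays. The ratio of Psmb9 to Psmb6 differed by -0.03 and -0.0041 (0.08 without that array), and that of Psmb10 to Psmb7 by -0.10 and -0.08 (-0.12). The ratio of Psme1 to Psme3 differed by -0.18 with the mimic and 0.11 with the inhibitor (0.22 without anti-miR-223 replicate 4), beside SDs of 0.14, 0.15 and 0.29. That of Psme2 to Psme3 differed by -0.17 and -0.0068 (0.24 without that array), beside SDs of 0.22, 0.57 and 0.51. With all arrays, each difference of the 3 catalytic pairs was within the SD of at least 1 group it compares. These ratios were not tested.

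Psma2 differed by -0.18 (-0.44 to 0.08), Psmd8 by -0.17 (-0.44 to 0.09) and Psmc4 by -0.23 (-0.58 to 0.11) between mimic and inhibitor. The value of Psmc4, a cap ATPase, came from anti-miR-223 replicate 4, which read 8.26 while the other inhibitor arrays read 7.53, 7.54 and 7.48; without it the difference was -0.05. Over the 6 ATPases and the 11 non-ATPases of the cap the medians were -0.0037 and 0.00096, and -0.0056 and 0.05 without that array. That of the 4 non-catalytic beta ring genes was -0.02, and -0.18 without anti-miR-223 replicate 4.

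**Figure D4:**
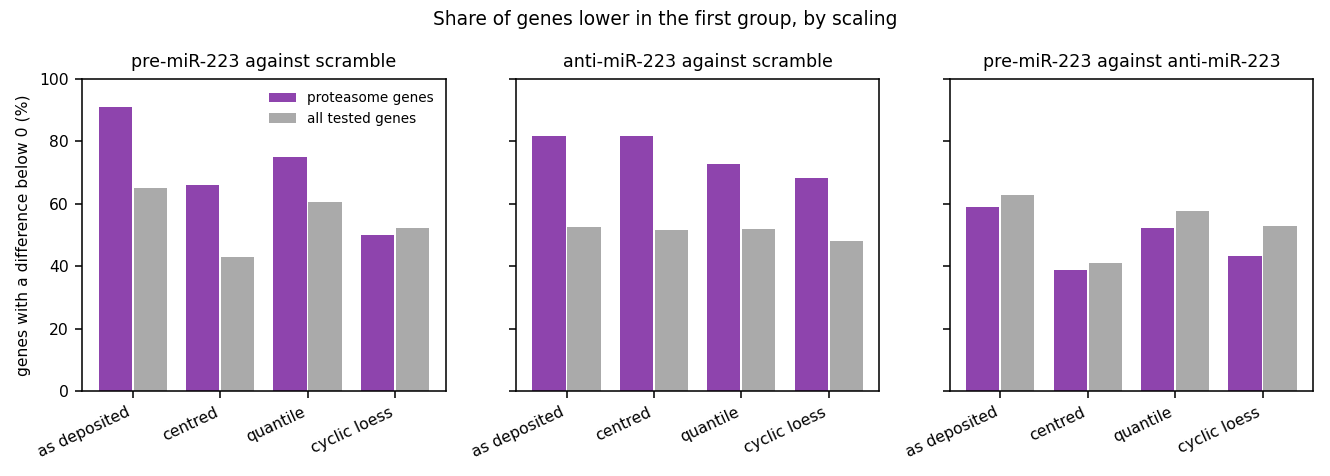
Bars give the percentage of the 44 proteasome genes (purple) and of all 14611 tested genes (grey) whose difference was below 0, for the values as deposited and under 3 other scalings. For the mimic against scramble the members go from 40 of 44 as deposited to 22 of 44 after cyclic loess, and all genes from 65.2% to 52.1%.

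Macrophage markers leaned the same way as the immunoproteasome genes, and so did most tested genes. With the mimic, 8 of 10 macrophage markers lay below scramble at a median of -0.24 (65.2% of all genes, median -0.05). Against anti-miR-223, 8 of 10 lay below at a median of -0.26 (62.8% of all genes, median -0.04). Without anti-miR-223 replicate 4 this was 7 of 10 at -0.12 (52.2% of all genes). The summed linear signal of these markers ranged from 6322 to 7275 over the scramble arrays, from 5137 to 6998 with pre-miR-223 and from 5724 to 7838 with anti-miR-223. Of the 3 low epithelial markers tested, Krt8 differed by 0.34 between mimic and inhibitor (limma adjusted p = 0.946; 0.23 without anti-miR-223 replicate 4), Krt18 by 0.0057 and Cdh1 by -0.02. The part of these markers in the values of the immunoproteasome genes was not tested.

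The next list held the core assembly chaperones Psmg1, Psmg2, Psmg3, Psmg4 and Pomp with Akirin2, which serves the nuclear import of proteasomes. None was called. With the mimic 5 of 6 lay below scramble (median -0.24; 65.2% of all genes lay below), the exception being Akirin2 at 0.03. With the inhibitor 5 of 6 did (median -0.18, and -0.13 without anti-miR-223 replicate 4; 52.5% of all genes), the exception being Psmg2 at 0.07. The counts were the same under the other 3 scalings. Psmg3, part of a chaperone pair that guides alpha ring assembly, read 4.88, 5.10, 5.01 and 4.86 with scramble, 4.69, 4.94, 4.59 and 4.54 with the mimic and 4.75, 4.75, 4.76 and 4.45 with the inhibitor. All 4 inhibitor arrays lay below every scramble array. The differences were -0.27 (-0.52 to -0.02, limma adjusted p = 0.921) and -0.28 (-0.53 to -0.03, limma adjusted p = 0.99997).

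Pomp, which brings the beta ring together and is needed for both forms of core, read 7.28, 7.15, 7.19 and 7.27 with scramble, 6.99, 7.13, 6.85 and 6.82 with the mimic and 7.05, 6.49, 7.18 and 6.67 with the inhibitor. The mimic arrays all lay below scramble, and inhibitor replicate 3 lay within its range. The differences were -0.28 (-0.58 to 0.02) and -0.38 (-0.68 to -0.08, limma adjusted p = 0.99997), the latter -0.32 without anti-miR-223 replicate 4. Psmg2 was the chaperone with the smallest p between mimic and inhibitor, at -0.29 (-0.64 to 0.07; -0.16 without that array).

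Among the 9 tested genes for other subunits and bound factors, 6 lay below scramble with the mimic (65.2% of all genes). With the inhibitor 4 did (52.5% of all genes), and none was called. With anti-miR-223 replicate 4 left out, all 9 lay below scramble with the inhibitor (63.6% of all genes), and the median went from 0.02 to -0.13. Sem1, a small lid subunit, differed by -0.32 (-0.78 to 0.13) with the mimic and by -0.48 (-0.94 to -0.03, limma adjusted p = 0.99997) with the inhibitor, where replicate 4 read 7.87 and the others 8.95, 8.59 and 9.05; without that array the second value was -0.24. Psmf1, first described as an inhibitor of the core, had the smallest p between mimic and inhibitor, at -0.34 (-0.69 to 0.02; -0.17 without anti-miR-223 replicate 4).

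Of 8 tested genes for ubiquitin supply and delivery, 7 lay below scramble with the mimic (65.2% of all genes). After cyclic loess 2 did (52.1% of all genes). With the inhibitor 5 did (52.5% of all genes), and no gene of this list was called. With anti-miR-223 replicate 4 left out, all 8 lay below scramble with the inhibitor (63.6% of all genes), and the median went from -0.0083 to -0.14. Ufd1, a cofactor of the segregase Vcp, differed by -0.26 (-0.61 to 0.10) with the mimic, and by -0.33 (-0.69 to 0.03; -0.16 without anti-miR-223 replicate 4) between mimic and inhibitor. Vcp itself, which extracts ubiquitin-tagged proteins for the proteasome, differed by -0.20 (-0.44 to 0.04) with the inhibitor. Without anti-miR-223 replicate 4 this was -0.28 (-0.50 to -0.05, limma adjusted p = 0.712). Of 8 regulators of transcription, none was called. Nfe2l1 read close to scramble, at 0.05 (-0.14 to 0.25) with the mimic and 0.06 (-0.14 to 0.25) with the inhibitor. Its dimer partner Mafk was at 0.16 (-0.08 to 0.40) with the mimic, and Foxo4, a forkhead factor, at 0.15 (-0.18 to 0.48) with the inhibitor. Nfe2l2, the relative of Nfe2l1 that answers oxidative stress, was at -0.29 (-0.69 to 0.11) between mimic and inhibitor, and at -0.08 without anti-miR-223 replicate 4.

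The genes that induce the immunoproteasome or use its peptides were read as a list of 13 tested genes. None was called. With the mimic 12 of 13 lay below scramble at a median of -0.14 (65.2% of all genes lay below). Under the other scalings 10 to 11 did (43.0% to 60.6% of all genes). With the inhibitor 8 of 13 did, at a median of -0.01 (52.5% of all genes lay below). Without anti-miR-223 replicate 4 this was 11 of 13 at a median of -0.10 (63.6% of all genes). B2m, the light chain of MHC class I, read 11.07, 11.08, 11.02 and 11.08 with scramble and 10.84, 11.05, 10.79 and 10.55 with the mimic, where replicate 2 lay inside the scramble range and the others below it. The difference was -0.25 (-0.51 to 0.00, limma adjusted p = 0.921). Tap1, which carries peptides into the endoplasmic reticulum, was at -0.27 (-0.56 to 0.03) between mimic and inhibitor, and at -0.13 without anti-miR-223 replicate 4. Irf1, the interferon-induced activator of the immunoproteasome genes, was at -0.13 (-0.36 to 0.11) with the mimic and -0.16 (-0.39 to 0.08) with the inhibitor.

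For 2 members, the array holds a second cluster that the choice of the brightest cluster per gene set aside. The clusters of Psma5 gave differences of 0.08 and 0.09 with the mimic. Those of Psmc2 parted. The cluster in use gave -0.07 with the mimic and -0.08 with the inhibitor. The other cluster read 6.02, 5.53, 7.39 and 7.13 with scramble (6.51 ± 0.89), 7.98, 6.66, 8.17 and 8.42 with the mimic (7.81 ± 0.79) and 7.22, 7.77, 6.73 and 4.55 with the inhibitor (6.57 ± 1.41). Its arrays differed far more within a group than those of the first cluster, and mimic replicate 2 fell inside the scramble range. In a limma fit of all 15458 clusters above the limit, its difference was 1.29 with the mimic (-0.04 to 2.63, adjusted p = 0.891), and 1.29 (0.41 to 2.17, adjusted p = 0.473) without anti-miR-223 replicate 4. Neither value passed, and which transcript of Psmc2 this cluster reads is not given in the sources used here.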

How the data were processed

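The authors deposited log2 values for 41345 transcript clusters by 12 arrays, already normalised; base 2 was assumed, since RMA gives log2 values and none is named. Affymetrix Expression Console, RMA and Partek are named, per the submitters' processing notes, without versions; the genome build is not given in the sources used here. RMA equalises the distributions of arrays, so a change in total RNA cannot be seen. A table pairing clusters with genes named 25335 clusters, of which 23521 had 1 symbol and 1814 several; only the former were used, with the brightest cluster for each gene. Genes with a mean above the 40th percentile of all clusters were tested in limma 3.58.1 (R 4.3.3; lmFit and eBayes, 1 model for the 12 arrays, 9 residual degrees of freedom), 2-sided, with Benjamini-Hochberg adjustment over all 14611 genes. The code was tested on simulated data, with 200 changed genes in each of 10 draws of the mimic against scramble. It called 48.3% of the 1.5-fold changes and 90.5% of the 2-fold changes. Unchanged genes gave a mean of 100.4 false calls per draw. Even if every changed gene was called, this is a larger share of the calls than the limit of 0.05 allows. The adjustment thus did not hold its error rate in this check. The rates of called changes belong to that simulated setting and need not hold for the arrays themselves, where no gene was called. A change of 1.5-fold can thus go uncalled. Beyond the replicate titles nothing says how cultures were separated, so p-values measure the spread between these arrays. Equal replicate numbers gave no general sign of pairing. Correlations of same-numbered arrays ran from -0.50 to 0.39 (median 0.00012), and those of differently numbered arrays from -0.40 to 0.52 (median 0.03). These correlations cannot exclude that some arrays shared a batch. Named genes were fixed by rule: the immunoproteasome genes, their constitutive counterparts and Psme3, the 5 members with the smallest p per comparison, any member called, and the gene of smallest p in each pathway list; genes behind a count were named after their values were seen. The members and lists were chosen with earlier results of these data known. Alternatives covered scaling, the filter, the choice of cluster, the model and each array left out. Protein sequences were not used here.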

Additional observations from a re-analysis of the deposited data

Results flagged for a closer look

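For each named gene, each group of 4 arrays was checked for a value far from the other 3, by Dixon's criterion at 95%. For independent groups of normal values, chance gives about 1 in 20. The groups here share arrays, and many of the genes were named for a small p in these data. The share over all tested genes was not computed, so the count is not read against that rate. Anti-miR-223 replicate 4 lay outside all other arrays for 47.6% of all tested genes. Of the 90 groups checked, 8 held a value far from the other 3. On anti-miR-223 replicate 4 there were 5: Psmc4 at log2 8.26 (others 7.48 to 7.54), Psme3 at 7.48 (6.58 to 6.73), Psmc1 at 7.46 (7.82 to 7.87), Psmg3 at 4.45 (4.75 to 4.76) and Psmc3ip at 4.66 (4.94 to 4.98). On pre-miR-223 replicate 2, Psmd13 read 5.56 (5.17 to 5.24) and Psmg2 6.49 (5.81 to 5.90). On pre-miR-223 replicate 4, Psmc3ip read 5.10 (4.93 to 4.95).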

How the results depend on the processing

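No proteasome gene and no other gene was called under any alternative tried. Of 900 recomputed differences of the 52 named results, 873 kept their direction and 27 turned, and 41 results never turned. Many of the 900 could not turn. Changing the filter, fitting 2 groups only, other eBayes settings and adding the replicate number to the model leave a difference of group means as it was. Each of these kept all 52 by construction. Leaving out anti-miR-223 replicate 4 likewise cannot move the mimic against scramble. The lowest adjusted p of a member in limma was 0.277. The median difference of the members moved under cyclic loess to -4.9e-05 for the mimic against scramble and, for the mimic against the inhibitor, to 0.040 when centred and 0.039 under cyclic loess; with single arrays left out it ranged from -0.15 to -0.07, from -0.09 to -0.02 (the inhibitor against scramble) and from -0.07 to -0.01. Cyclic loess turned Psmb7 (0.0050) and Psme3 (0.00016) for the mimic against scramble, Psmb8 (0.026) and Psmb7 (0.029) for the inhibitor against scramble, and Psmb5 (0.015) for the mimic against the inhibitor. Quantile normalisation turned Psmb8 (0.023) and Psmb7 (0.016) for the inhibitor against scramble, centring turned Psmb5 (0.012) for the mimic against the inhibitor, and averaging a gene's clusters turned Psmg2 (0.043) there. Leaving out single arrays turned differences of the inhibitor against scramble, over ranges of -0.058 to 0.10 (Psmb8), -0.14 to 0.023 (Psmb9), -0.10 to 0.10 (Psme2), -0.12 to 0.055 (Psmb6), -0.052 to 0.032 (Psmb7) and -0.19 to 0.11 (Psme3), and of the mimic against the inhibitor, over -0.15 to 0.013 (Psmb5) and -0.22 to 0.083 (Psme3). The cause was not tested.

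Replicate numbers gave no general sign of pairing, though a shared batch was not excluded. With the replicate block, 0 genes were called. In that fit 547, 248 and 408 genes had an unadjusted p under 0.05, against 711, 294 and 528 without it. Each group holds every replicate number, so the block cannot move a difference of group means. The medians of the members are therefore -0.11, -0.06 and -0.04 by construction. With 4 arrays a group, a member's interval spans about 0.26 log2 units to either side before any adjustment, and the adjusted test needs larger differences than that to make a call. The lists' medians under each scaling and with arrays left out, and the comparisons without anti-miR-223 replicate 4 beyond leaving out 1 array at a time, were added after the data were seen.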
